A study of Mus musculus with 9 samples.

Results

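The genes described here are those of MHC class II antigen presentation: H2-Aa, H2-Ab1 and H2-Eb1, Cd74, H2-DMa and H2-DMb1, H2-Oa and H2-Ob, and Ciita. They were chosen by name as the core chains and helpers of the pathway, and each was taken from the array row that carries its symbol. Of the 9 named genes 8 were measured, among 19505 genes on the array, and Cd74 was not analysed here. The tissue was whole back skin from 8-week-old C57BL/6J mice, hybridised to Affymetrix arrays. All mice had 5% imiquimod cream, a Toll-like receptor agonist that induces psoriasis-like dermatitis, applied for 7 days. In the stretch group (n = 5) traction was added through a device glued to the skin and lengthened by 10 mm. The no-stretch group (n = 4) had no traction, and no skin without imiquimod was analysed here. Whether non-stretched skin carried the device, and whether each sample came from a separate mouse, is not stated in the labels, so the spread behind each p-value may be partly technical.

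MHC class II molecules are pairs of an alpha and a beta chain that present peptides from endosomes to CD4 T cells. In skin they are carried mainly by Langerhans cells, dermal dendritic cells and macrophages, and B cells carry them too. H2-Aa and H2-Ab1 encode the alpha and beta chains of the molecule I-A, and H2-Eb1 the beta chain of I-E. C57BL/6 mice lack a working I-E alpha chain, so that H2-Eb1 RNA is made there without surface I-E. H2-DM, made of H2-DMa and a DM beta chain, exchanges the invariant chain peptide for antigen peptides, and H2-DO, made of H2-Oa and H2-Ob, restrains H2-DM. Ciita is the class II transactivator, a co-activator without DNA binding of its own that docks on factors bound to the X and Y boxes of class II promoters.

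Promoter sequences were at hand for 6 of the 9 genes, in RefSeq's GRCm38.p6 table of 250 bases before and 50 bases after each annotated gene start. They are shown because the X and Y boxes are where Ciita acts and the class II genes share them. The following 80-base stretches, all on chromosome 17, were read on the gene's own strand from 5′ to 3′. Capitals mark the letters that were searched for, namely the Y box TGATTGG, an X box written as AAC, any 2 bases and ATGATG, and the palindrome TGACGTCA that stands for the X2 part of the X box in H2-Aa. H2-DMb2, the neighbouring second DM beta gene, is included for comparison. Its promoter belongs to a start that lies downstream of the first base of the gene's RefSeq span.

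H2-Aa (chr17:34287855-34287934, minus strand): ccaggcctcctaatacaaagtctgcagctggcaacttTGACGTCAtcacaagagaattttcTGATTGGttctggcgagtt

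H2-Eb1 (chr17:34305745-34305824, plus strand): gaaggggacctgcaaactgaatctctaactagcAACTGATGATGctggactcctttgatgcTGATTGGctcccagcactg

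H2-DMb1 (chr17:34153067-34153146, plus strand): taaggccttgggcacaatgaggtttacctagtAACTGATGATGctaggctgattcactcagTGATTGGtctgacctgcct

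H2-DMb2 (chr17:34145096-34145175, plus strand): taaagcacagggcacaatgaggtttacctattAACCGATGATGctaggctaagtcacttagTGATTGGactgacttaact

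H2-Ob (chr17:34238785-34238864, plus strand): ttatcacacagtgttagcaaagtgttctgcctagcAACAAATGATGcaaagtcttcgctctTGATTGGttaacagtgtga

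H2-Oa (chr17:34092273-34092352, plus strand): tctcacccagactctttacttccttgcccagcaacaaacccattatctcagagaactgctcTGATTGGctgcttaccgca

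The Y box letters stood in 5 of the 6 promoters, the exception being H2-DMa. Only the 300 bases at the start given were searched, so a Y box elsewhere in H2-DMa was not looked for. In H2-Aa, H2-Eb1, H2-DMb1 and H2-Ob an X box or the palindrome preceded the Y box, with 16, 17, 18 and 15 bases between them, and H2-DMb2 also had 18. H2-Oa held the Y box without either of the other motifs as written. Searched on both strands in all 32851 promoters of the same length, the Y box letters occurred in 7.82%, the X box letters in 0.137% and the palindrome in 1.79%. The X box or palindrome followed by the Y box on the same strand within 30 bases occurred in 12 promoters (0.0365%), and 5 of these belonged to the class II genes named above. Promoters that overlap on opposite strands were counted separately, even where they share the same site. The letters were written down after the class II promoters had been read, so that these shares describe the sequences and are no test. A match is not a measured binding site.

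**Figure D1:**
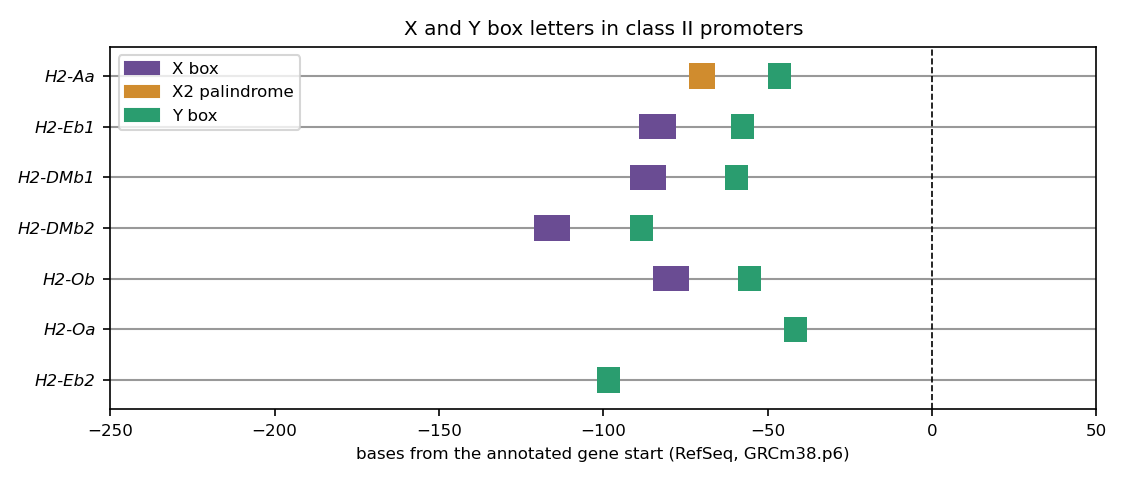
Positions of the searched motifs in the promoters of 7 class II locus genes, in bases from the annotated gene start (dashed line); coloured blocks are drawn at motif length. In H2-Aa, H2-Eb1, H2-DMb1, H2-DMb2 and H2-Ob a purple or orange block lies 15 to 18 bases before the green Y box, whereas H2-Oa and H2-Eb2 show the Y box alone. For H2-DMb2 and H2-Eb2 the start drawn lies downstream of the first base of the gene's RefSeq span.

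All 8 measured genes had lower means in stretched than in non-stretched skin, where 50.4% of all genes did. The chains of the classical molecules and H2-DMb1 were 1.59-fold to 2.09-fold lower, while H2-DMa, H2-Oa, H2-Ob and Ciita were 1.05-fold to 1.18-fold lower. A reduction of at least 1.5-fold was seen in 4 of the 8 genes and in 5.65% of all genes. None of the 8 had a limma p below 0.05 once adjusted over all genes (Benjamini-Hochberg), a threshold that 0.246% of genes passed. At an unadjusted p under 0.05, 3 of the 8 (H2-Aa, H2-Eb1 and H2-DMb1) were lower and 0 higher, against 6.07% and 6.92% of all genes. The median log2 change of the 8 genes was -0.46, beside -0.0034 over all genes. Since bulk skin was measured, fewer class II-bearing cells and less class II RNA per cell cannot be told apart.

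H2-Aa, the I-A alpha chain, had log2 values of 12.91, 13.01, 13.23, 11.53 and 12.79 in stretch replicates 1 to 5, against 13.55, 14.25, 13.96 and 13.27 in no-stretch replicates 1 to 4. Every stretched sample lay below every non-stretched one, by a margin of 0.038 between stretch replicate 3 and no-stretch replicate 4, and stretch replicate 4 was the lowest of all. H2-Aa was the only member without overlap, in a table where 2.15% of genes were lower without overlap and 4.54% were separated in either direction. It averaged 12.69 ± 0.67 in stretched skin (SD, n = 5), against 13.76 ± 0.43 in non-stretched skin (SD, n = 4). The log2 change of -1.06 had a 95% confidence interval of -1.78 to -0.34, a limma adjusted p = 0.21 and an exact two-sided permutation p = 0.016. Without stretch replicate 4 the change was -0.77, and limma's unadjusted p was then 0.0065.

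H2-Ab1, the I-A beta chain, was at 8.96, 11.02, 11.02, 10.39 and 10.86 in stretch replicates 1 to 5, against 11.02, 11.87, 11.25 and 10.97 in no-stretch replicates 1 to 4. The groups overlapped: stretch replicates 2 and 3 were level with no-stretch replicates 1 and 4. Stretch replicate 1 lay far below all other samples. H2-Ab1 averaged 10.45 ± 0.87 in stretched skin (SD, n = 5), against 11.28 ± 0.41 in non-stretched skin (SD, n = 4), and its log2 change of -0.83 had a 95% confidence interval of -1.69 to 0.032 (limma adjusted p = 0.41). Without stretch replicate 1 the change was -0.46. That array and no-stretch replicate 3 had the lowest array weights of the 9 (0.547 and 0.579).

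H2-Eb1, the I-E beta chain, was at 7.75, 9.16, 9.19, 8.50 and 8.28 in stretch replicates 1 to 5, against 9.15, 10.05, 10.14 and 9.07 in no-stretch replicates 1 to 4. Stretch replicates 1, 4 and 5 were below all non-stretched samples, no-stretch replicates 2 and 3 were above all stretched ones, and the remaining 4 samples lay between 9.07 and 9.19. It averaged 8.58 ± 0.61 in stretched skin (SD, n = 5), against 9.61 ± 0.57 in non-stretched skin (SD, n = 4). The log2 change of -1.03 (95% confidence interval -1.76 to -0.30) had a limma adjusted p = 0.22 and an exact permutation p = 0.079. With stretch replicate 1 and no-stretch replicate 3 both left out it was -0.65, and limma's unadjusted p was then 0.065. H2-Eb2, the neighbouring I-E beta gene, had nearly the same mean in both groups (3.35 with stretch and 3.36 without, log2 change -0.0023).

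**Figure D2:**
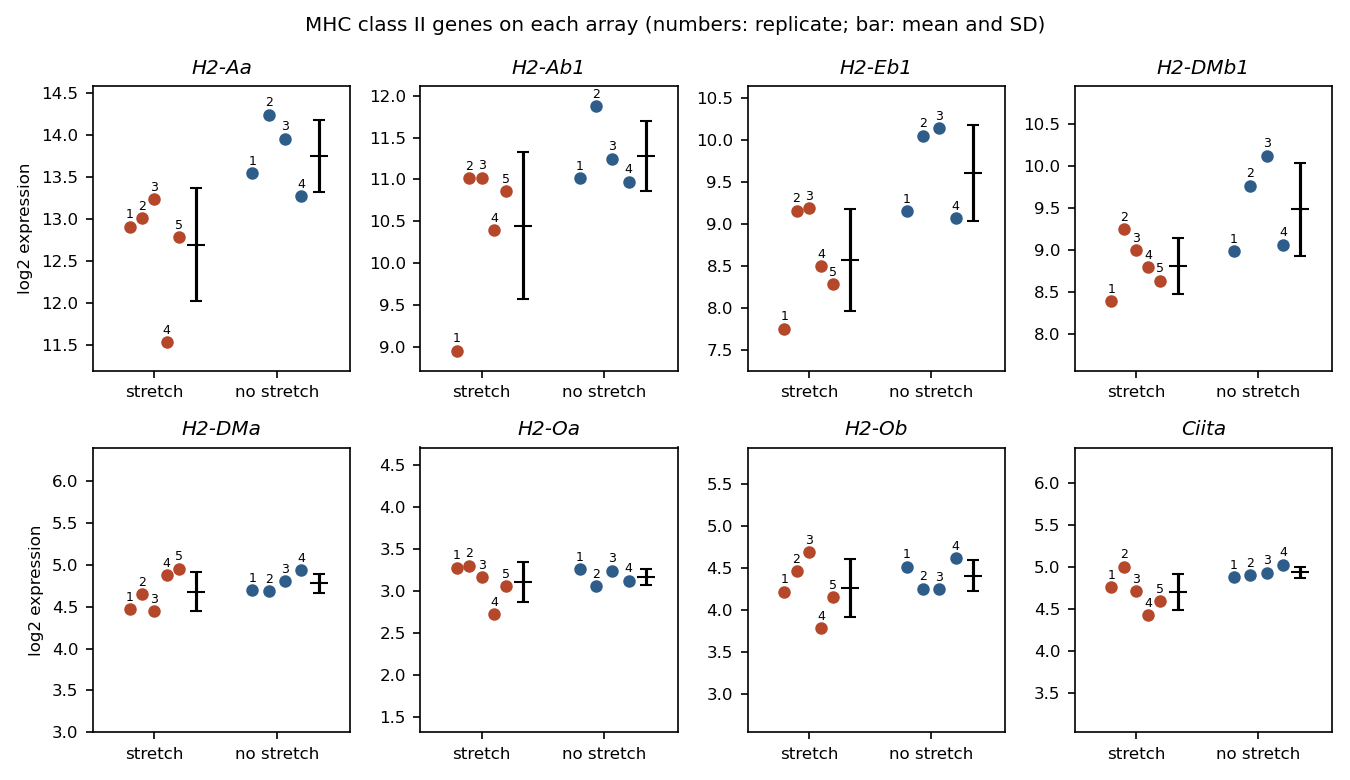
Log2 expression of the 8 measured genes on each array, with stretch at the left and no stretch at the right of each panel; every panel spans the same number of log2 units, numbers give the replicate, and bars give the mean and SD. H2-Aa is the panel whose groups do not overlap, stretch replicate 1 stands alone in H2-Ab1, and the panels of H2-DMa, H2-Oa, H2-Ob and Ciita are nearly flat.

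Of the peptide-loading genes, H2-DMb1, a DM beta chain, was at 8.38, 9.25, 8.995, 8.79 and 8.63 in stretch replicates 1 to 5, against 8.98, 9.76, 10.13 and 9.06 in no-stretch replicates 1 to 4. The arrays took nearly the same order as for H2-Eb1, with stretch replicates 1, 5 and 4 lowest and no-stretch replicates 2 and 3 highest. The difference in log2 level was -0.67 (95% confidence interval -1.25 to -0.095, limma adjusted p = 0.31, exact permutation p = 0.063), and -0.35 with stretch replicate 1 and no-stretch replicate 3 both left out. H2-DMb2, the second DM beta gene, was at 7.26, 8.30, 8.67, 7.35 and 8.61 with stretch, against 9.19, 9.09, 9.61 and 8.54 without. It was 2.1-fold lower (log2 change -1.07, 95% confidence interval -1.80 to -0.34, limma adjusted p = 0.21). The DM beta genes are close paralogs, and how far the array separates them was not assessed. For H2-DMa, the DM alpha chain, the log2 change was -0.10, with a 95% confidence interval of -0.46 to 0.26 that overlaps that of H2-DMb1; the difference between them was not tested. Its values ran from 4.44 to 4.95 with stretch and from 4.69 to 4.93 without, and the highest sample of all, replicate 5, was a stretched one.

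The DO chains, which restrain DM and are known mainly from B cells and thymus, showed no difference larger than the spread. H2-Oa ranged from 2.72 to 3.31 with stretch and from 3.06 to 3.26 without, a log2 change of -0.07 (95% confidence interval -0.42 to 0.29). Without stretch replicate 4 the sign of this change turned, to 0.029. H2-Ob ranged from 3.79 to 4.70 with stretch and from 4.25 to 4.62 without, a log2 change of -0.14 (95% confidence interval -0.58 to 0.29). Stretch replicate 4 was the lowest array for both.

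Ciita was at 4.76, 5.00, 4.71, 4.42 and 4.59 in stretch replicates 1 to 5, against 4.88, 4.90, 4.93 and 5.03 in no-stretch replicates 1 to 4. Of the stretched samples 4 lay below every non-stretched one, and the exception, replicate 2, was the second highest of all. Ciita averaged 4.70 ± 0.22 in stretched skin (SD, n = 5), against 4.93 ± 0.065 in non-stretched skin (SD, n = 4). Its log2 change of -0.24 had a 95% confidence interval of -0.58 to 0.11 (limma adjusted p = 0.56, exact permutation p = 0.079). All 9 values fell within 0.604 log2 units.

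The level of a gene on such arrays depends on its probes, so levels are given by their place among all genes and not set against each other. H2-Aa stood at percentile 96.2 of the mean over all arrays, H2-Ab1 at 87.8, H2-DMb1 at 76.4 and H2-Eb1 at 75.8. Ciita, H2-DMa, H2-Ob and H2-Oa stood at percentiles 37.8, 36.9, 32.03 and 11.7. No detection call was applied, so the small differences of these 4 genes cannot be read as constant expression. Standard errors of the log2 change ran from 0.157 for Ciita to 0.394 for H2-Ab1, beside a median of 0.21 over all genes.

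Covariation among the genes was strongest for H2-Eb1, H2-DMb1 and H2-Ab1. By Pearson r the closest pair was H2-Eb1 and H2-DMb1 (0.96 over 9 arrays, and 0.93 for deviations from the group means), and by Spearman rho it was H2-Ab1 and H2-Eb1 (0.97, against 0.92 for H2-Eb1 and H2-DMb1). Ranked by r with H2-DMb1, H2-Eb1 was number 1 of 19504 genes, and ranked by r with H2-Eb1, H2-DMb1 was number 4. The exact permutation p over all pairings was 5.0e-05 for r and 0.0013 for rho, which became 0.17 and 0.35 after Benjamini-Hochberg adjustment over 19504 genes. H2-Ab1 followed H2-Eb1 with r = 0.85 and rho = 0.97 (exact permutation p = 0.00060 and 0.00017, adjusted p = 0.24 and 0.30). Without the 2 arrays farthest from the median of H2-Eb1, which were no-stretch replicate 3 and stretch replicate 1, r of H2-Eb1 was 0.95 with H2-DMb1, 0.89 with H2-Ab1 and 0.82 with H2-Aa, but 0.59 with H2-DMb2 and -0.55 with H2-DMa. H2-Aa tracked H2-Eb1 less closely, with r = 0.72 and rho = 0.78 (exact permutation p = 0.026 and 0.017, adjusted p = 0.37 and 0.47), and r = 0.45 for deviations from the group means. H2-DMb2 had r = 0.82 and rho = 0.75 with H2-Eb1 (exact permutation p = 0.0077 and 0.025, adjusted p = 0.29 and 0.51). H2-DMa had r of 0.12 with H2-DMb1, its partner chain, and 0.059 with H2-Eb1. It stood at percentile 36.9 without a detection call, so a low r cannot be read as the chains varying apart.

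**Figure D3:**
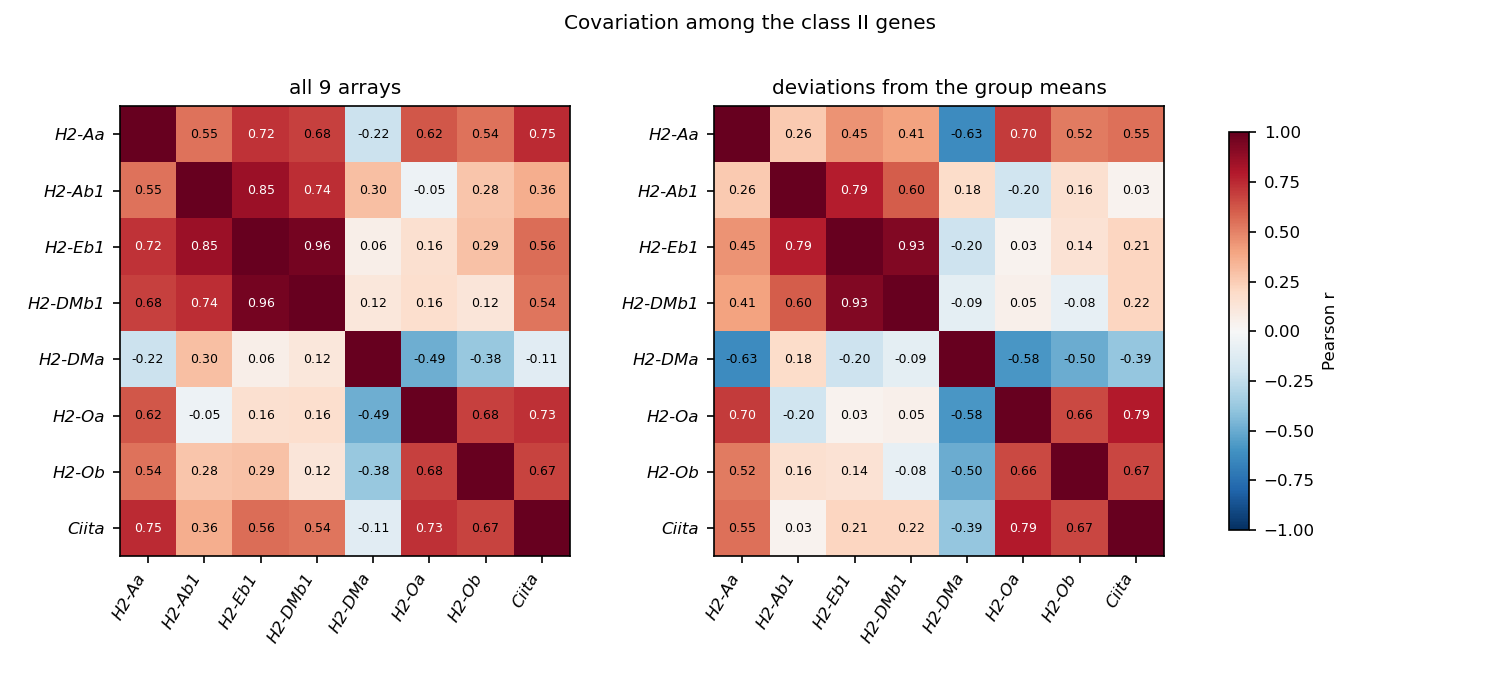
Pearson r for each of the 28 pairs of the 8 genes over all 9 arrays (left) and for deviations from the group means (right). The red block of H2-Eb1, H2-DMb1 and H2-Ab1 persists in the right panel (0.93, 0.79 and 0.60), and there Ciita has r of 0.79, 0.67 and 0.55 with H2-Oa, H2-Ob and H2-Aa, while over the arrays other than stretch replicates 4 and 5 the plain r is -0.030, -0.013 and 0.19.

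Covariation with Ciita was then set out for the other 7 measured genes. Ciita, H2-DMa, H2-Ob and H2-Oa stood low among all genes, at percentiles 37.8, 36.9, 32.03 and 11.7. No detection call was applied, so it is not known whether their values, and thus these correlations, rise above background. Over 9 arrays Pearson r was 0.75 for H2-Aa, 0.73 for H2-Oa, 0.67 for H2-Ob, 0.56 for H2-Eb1, 0.54 for H2-DMb1, 0.36 for H2-Ab1 and -0.11 for H2-DMa. Spearman rho was 0.63, 0.50, 0.53, 0.45, 0.70, 0.45 and -0.033 in the same gene order. Of the 7 genes 6 had positive r, where 51.0% of all genes did, and 5 had r above 0.5, where 10.3% did. The exact permutation p of r was 0.020 for H2-Aa, 0.023 for H2-Oa and 0.045 for H2-Ob, and that of rho was 0.076, 0.18 and 0.15. At this unadjusted level 2.97% of all genes were positively related to Ciita. None of the 7 relations passed adjustment over the 19504 genes related to Ciita in this way, each having adjusted p of at least 0.83 for r and rho, and 0 genes in all passed (1056 had an unadjusted permutation p of r under 0.05).

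The relation of Ciita with H2-Aa, H2-Oa and H2-Ob rested largely on stretch replicate 4. Without it r was 0.44 for H2-Aa, 0.34 for H2-Oa and 0.32 for H2-Ob, whereas without stretch replicate 5 alone it was 0.75, 0.74 and 0.65. Without both, the arrays farthest from the median of Ciita, r was 0.19 for H2-Aa, -0.030 for H2-Oa and -0.013 for H2-Ob. It was 0.39 for H2-Eb1, 0.44 for both H2-DMb1 and H2-Ab1, and 0.87 for H2-DMa, which turned from negative to positive. Deviations from the group means gave r = 0.55 with H2-Aa, 0.79 with H2-Oa and 0.67 with H2-Ob, but 0.21 with H2-Eb1, 0.22 with H2-DMb1 and 0.032 with H2-Ab1. Groups of 5 and 4 arrays are too few for a correlation within each.

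By likeness of pattern, the genes with the highest r with Ciita over 9 arrays were Fbln7 (0.98), Gip (0.93), Slc6a11 (0.93), Syn2 (0.92) and Olfr418 (0.91). Among these are genes of gut hormone, neuronal and olfactory function, and each was at its lowest in stretch replicate 4, as Ciita was. Those most like H2-Ab1 were Nfe2l1 (0.98), Sema4b (0.97), Usp20 (0.96), Rundc1 (0.95) and Gatad2a (0.95), and each was at its lowest in stretch replicate 1, as H2-Ab1 was.

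**Figure D4:**
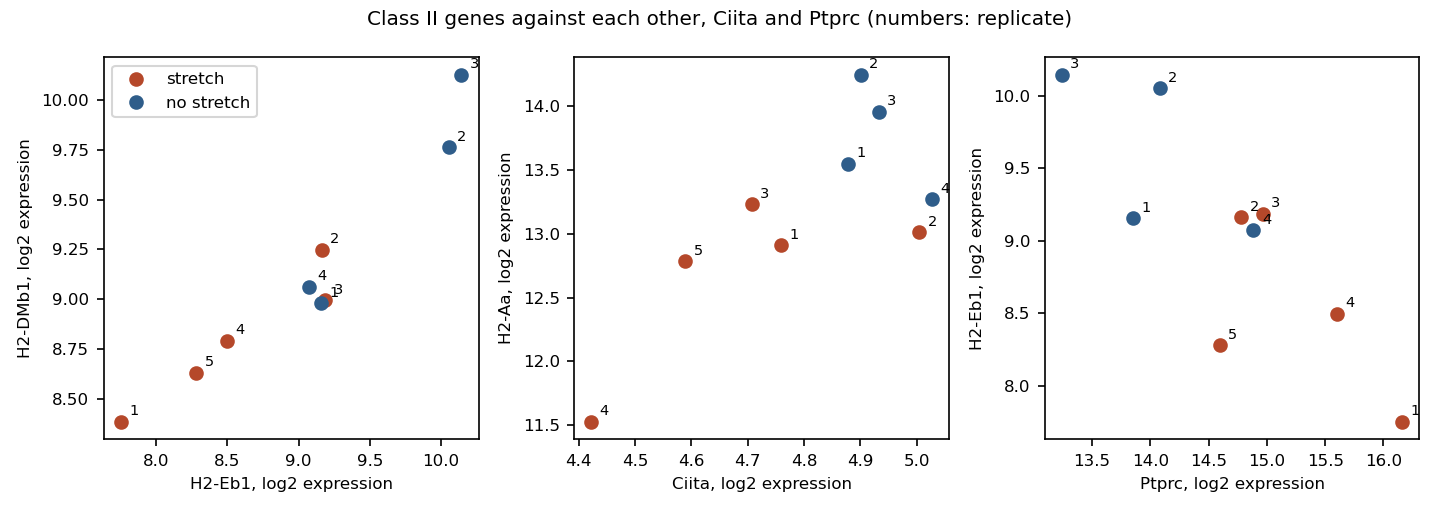
Log2 expression of H2-DMb1 against H2-Eb1, of H2-Aa against Ciita, and of H2-Eb1 against the leukocyte gene Ptprc, 1 point per array with its replicate number. The points of the first panel lie along a line across both groups, in the second stretch replicate 4 lies alone at the lower left, and in the third stretch replicate 1 (highest Ptprc) and no-stretch replicate 3 (lowest Ptprc) lie at the ends.

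The factors that act upstream of class II promoters gave a different picture from the class II genes. Among the proteins that assemble on the X and Y boxes or are recruited there, 5 of 10 were higher and 5 lower, 0 passed, and the median log2 change was -0.0034. Rfx5, Rfxap and Rfxank, the subunits of the X box factor RFX, had log2 changes of 0.010, -0.017 and 0.16. Of the Y box factor NF-Y, Nfyb was at 0.38 and Nfya at -0.24, and the co-activators Crebbp and Ep300 were at -0.33 and 0.24. Crebbp had the smallest p of the list (limma adjusted p = 0.38). It was lower in every stretched sample than in any non-stretched one, as were 2.15% of all genes.

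Known regulators of Ciita had positive log2 changes in 13 of 15 measured members, where 9667 of all 19505 genes did. Their median was 0.32, and 0 were past the threshold. At an unadjusted p under 0.05 in limma, 5 were higher, where 6.92% of all genes were. The list holds inducers such as Ifng and restraining factors such as Tgfb1, so that its signs have no common direction for Ciita. Ifng, the main inducer of Ciita outside professional antigen-presenting cells, was at 5.204, 5.21, 6.36, 6.21 and 5.10 in stretch replicates 1 to 5, against 4.40, 4.91, 3.93 and 5.12 in no-stretch replicates 1 to 4. Its log2 change was 1.03 (95% confidence interval 0.30 to 1.75, limma adjusted p = 0.22), the opposite sign to every class II gene measured. Its receptor chains Ifngr1 and Ifngr2 were at 0.54 and 0.41, and Jak2, the kinase that the receptor uses, at 0.89 (limma adjusted p = 0.26, 0.30 and 0.18). Tgfb1, which is known to restrain Ciita, was at 0.82 (limma adjusted p = 0.29). Genes that interferon-gamma induces had positive changes in 10 of 10 measured members, again with 0 past the threshold and 0 at an unadjusted p under 0.05. Their median was 0.46, with Cxcl9 at 1.39, Cxcl11 at 1.01 and Gbp3 at 0.79. The mean level of the list ran from 9.19 to 11.50 with stretch and from 8.14 to 10.68 without. No-stretch replicate 3 was the lowest of all arrays for every gene of the list but Ido1. It stood at 9.94 for Cxcl9, 6.32 for Cxcl11 and 10.33 for Gbp3. How far the signs rest on that array, which had a low array weight (0.579), was not tested.

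Endosomal proteases and other processing genes were higher in 9 of 10 measured members, where 9667 of all 19505 genes were. Of the list 0 were past the threshold, and the median log2 change was 0.29. Ctss, the cathepsin that trims the invariant chain, was at 0.68, Ctsl at 0.71, Lgmn (the asparagine endopeptidase) at 0.59 and Ctsh at 0.44. Ctsh alone had an unadjusted p under 0.05 in limma (adjusted p = 0.28), a level at which 6.92% of all genes were higher. Among genes of class II turnover and costimulation, 6 of 8 were positive, beside the same share of all genes, and 0 passed. At an unadjusted p under 0.05 in limma 1 was higher. The inhibitory ligand gene Cd274 was at 1.36 (limma adjusted p = 0.23), while Marchf1, the ubiquitin ligase that removes class II from the surface of dendritic and B cells, was at 0.27 and the costimulators Cd86 and Cd80 at 0.066 and 0.26. On the T cell side, 10 of 10 members were negative, where 50.4% of all genes were, with a median of -0.30 and 0 past the threshold. At an unadjusted p under 0.05 in limma 1 was lower, where 6.07% of all genes were. The list stood at a median percentile of 40.8, without a detection call. Cd4, the co-receptor that binds class II, averaged 7.04 ± 0.48 in stretched skin (SD, n = 5), against 7.94 ± 0.47 in non-stretched skin (SD, n = 4), and its log2 change was -0.90 (limma adjusted p = 0.21).

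**Figure D5:**
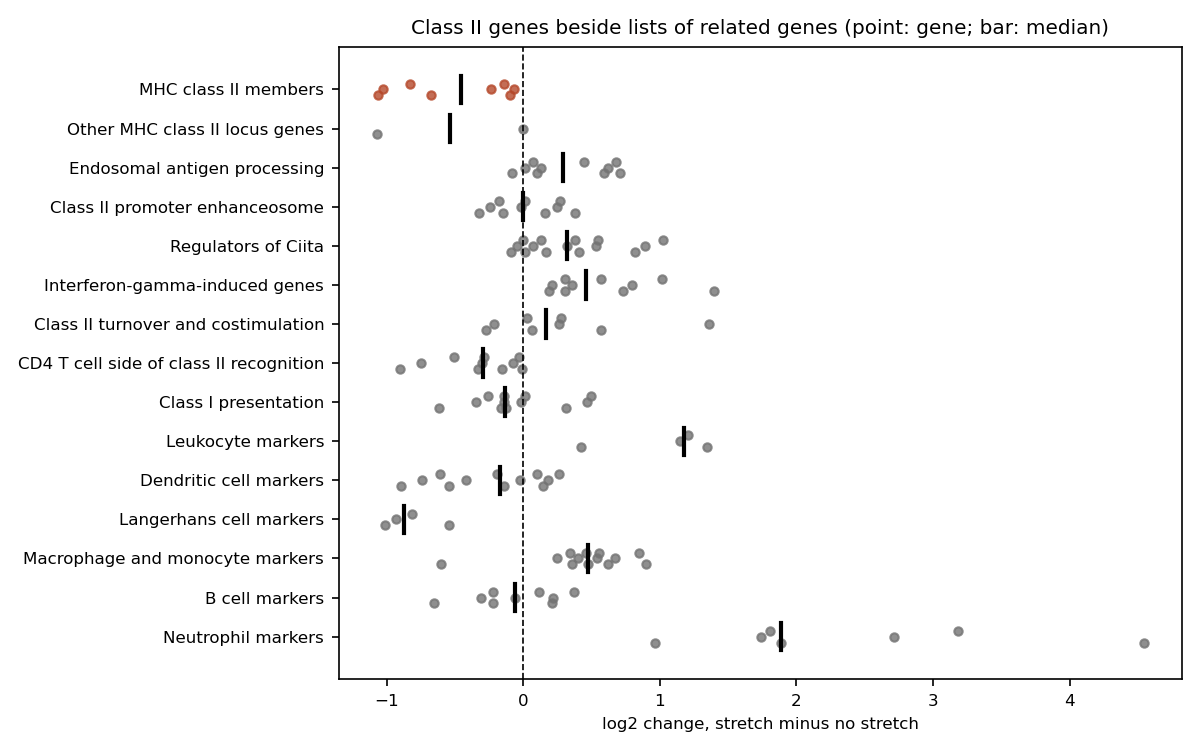
Log2 change, stretch minus no stretch, of every measured gene in the class II set (top) and in lists of related genes and cell type markers; points are genes and black bars are list medians. The 8 class II genes lie left of 0 with a median of -0.46, as do the Langerhans markers (-0.87), whereas leukocyte, macrophage and neutrophil markers lie mostly to the right (medians 1.18, 0.47 and 1.89).

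Marker lists of cells that carry class II had medians of either sign, and none of their members passed over all genes. Langerhans cell markers were negative in 4 of 4 measured members, with a median log2 change of -0.87 and 3 lower at an unadjusted p under 0.05, where 6.07% of all genes were lower. Cd207 (langerin) was at 5.08, 5.05, 6.17, 4.79 and 5.36 in stretch replicates 1 to 5, against 6.07, 6.15, 6.73 and 5.48 in no-stretch replicates 1 to 4 (log2 change -0.82, limma adjusted p = 0.28). Epcam, which Langerhans cells share with follicular keratinocytes, was at -1.01 (limma adjusted p = 0.22). The mean level of the list ran from 7.30 to 8.10 with stretch and from 8.10 to 8.73 without. Its part in the class II values was not tested.

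Dendritic cell markers were negative in 8 of 12 members, where 50.4% of all genes were, with a median of -0.17 and 3 lower at that level. Their mean level ran from 4.75 to 5.19 with stretch and from 5.18 to 5.29 without. These markers stood low among all genes, at a median percentile of 34.4. Without a detection call it is not known how many of them rise above background. Xcr1 and Cd209a, of cross-presenting and monocyte-like dendritic cells, were at -0.54 and -0.74. Clec9a and Batf3, also of cross-presenting dendritic cells, had the opposite sign, at 0.15 and 0.099. Itgax was at 0.18 and Flt3 at -0.42. With the mean of this list as a covariate, the log2 change was -0.54 for H2-Aa, -1.10 for H2-Ab1, -1.22 for H2-Eb1 and -0.83 for H2-DMb1. None passed adjustment over all genes in limma (adjusted p from 0.48 to 0.69). The list mean was itself related to group, so this fit cannot separate its part from that of stretch. B cell markers were mixed, negative in 5 of 9 members with a median of -0.061, and their mean level ran from 4.22 to 4.41 with stretch and from 4.20 to 4.49 without. They stood at a median percentile of 20.1, with the same limit of detection. Plasmacytoid dendritic cell markers were negative in 4 of 5 (median -0.075).

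Markers of leukocytes as a whole were higher in 4 of 4 members, with a median log2 change of 1.18. Macrophage and monocyte markers were higher in 12 of 13 (median 0.47), and neutrophil markers in 7 of 7 (median 1.89). None of the members of these 3 lists passed over all genes. At an unadjusted p under 0.05, 3 of 4 leukocyte, 1 of 13 macrophage and 7 of 7 neutrophil markers were higher, where 6.92% of all genes were. The mean level of the leukocyte list ran from 12.75 to 13.98 with stretch and from 11.45 to 12.94 without. Ptprc (CD45), carried by all leukocytes, was at 16.16, 14.78, 14.96, 15.60 and 14.60 with stretch, against 13.85, 14.08, 13.24 and 14.88 without (log2 change 1.21, limma adjusted p = 0.20). The class II genes thus had the opposite sign to Ptprc. H2-Eb1 had r = -0.83 and rho = -0.63 with Ptprc over 9 arrays (exact permutation p = 0.0070 and 0.076, adjusted over all genes 0.29 and 0.60), and r = -0.54 without no-stretch replicate 3 and stretch replicate 1. With Ptprc as a covariate in limma the log2 change was -0.63 for H2-Aa, -0.32 for H2-Eb1, -0.16 for H2-DMb1 and 0.052 for H2-Ab1. The adjusted p was 0.9999 for each, in a fit where 0 genes of the whole table passed. Ptprc was itself related to group, so this fit cannot separate its part from that of stretch.

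The structural cells of the tissue were checked in the same way. Keratinocyte markers stood at a median percentile of 99.9, as the label of skin requires, and were negative in 5 of 6 members (median log2 change -0.16). Fibroblast markers were negative in 6 of 6 (median -0.85), and 1 of them, Dpt, which encodes the matrix protein dermatopontin, fell past the adjusted threshold. Adipocyte markers were negative in 4 of 5 (median -0.67) and skeletal muscle markers in 4 of 5 (median -0.18), while endothelial markers were positive in 3 of 5 (median 0.56). The part of these shifts in the class II values was not tested.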

How the data were processed

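The deposited values are log2 expression per transcript cluster; RMA and Transcriptome Analysis Console are named for them, without versions, per the submitters' processing notes. No build, annotation version or filter is stated there. RNA (6 ug) was labelled with biotin, per the labels' protocols. Symbols came from the platform annotation (19572 of 22206 features named). For genes with several features (55; no member among them) the highest mean was kept, leaving 19505 genes. Array medians were 5.81 to 5.99, and the number of arrays limits the precision.

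Stretch minus no stretch was fitted with lmFit and eBayes of limma 3.58.1 (R 4.3.3), two-sided, without covariates, adjusted by Benjamini-Hochberg over all genes at 0.05. Correlations used exact two-sided permutation over all 362880 orders of 9 arrays (Python 3.11.15, numpy 2.4.6). Both procedures were run on simulated data as a check, the correlations with fewer arrays than here. No power for the genes described was derived from it. Named genes were the members, their locus neighbours H2-Eb2 and H2-DMb2, the 5 genes most like Ciita and H2-Ab1 in pattern, and up to 4 genes of smallest p per list. Rfx5, Rfxap, Rfxank, Ifngr2, Cd80, Cd86, Itgax, Flt3, Clec9a and Batf3 were added after their values were seen. So were B2m, H2-D1, Psmb9, Psmb10, Dtl, Ints7, Dusp8, Prkar1a, Ift57 and Thada in the closing section. The members and lists were chosen with earlier results of these data known. Promoters came from a RefSeq table. Alternatives covered scaling, filters, feature choice, weighting of arrays, the variance prior, replicate number as a block, covariates and omission of arrays.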

Additional observations from a re-analysis of the deposited data

Results flagged for a closer look

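Single arrays were checked for standing apart from the rest of their group, for 48 named genes in 2 groups each (96 checks), and 6 did, where chance gives about 5% of checks. H2-Aa in stretch replicate 4 was at 11.53, against 12.79 to 13.23 in the other stretched samples. Crebbp in stretch replicate 1 was at 12.60, against 12.86 to 12.96. Nfya in no-stretch replicate 1 was at 7.84, against 7.37 to 7.41 in the other non-stretched samples. Jak2 in no-stretch replicate 3 was at 10.57, against 11.38 to 11.43. Nfe2l1 and Rundc1, which were named for their likeness to H2-Ab1, were high in no-stretch replicate 2, at 14.48 and 6.83, against 14.05 to 14.10 and 6.68 to 6.70. No explanation of these values was tested.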

How the results depend on the processing

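No class II gene passed under any alternative; at an unadjusted p under 0.05, 3 did. Adjusted p came nearest with the replicate block (H2-Eb1 0.077, H2-Aa 0.080), but the replicate numbers share only a number: same-numbered deviations correlated at -0.062, -0.018, 0.064 and 0.34, and 1 of 4 stretched samples matched its own number best. Genes called over the whole table numbered 48, but 221 with that replicate block, 157 with array weights and 75 after quantile normalization. There were 103 without the lower 50% of genes by level and 105 with a milder filter of that kind. With the dendritic mean and Ptprc as covariates 3 and 0 were called, and 211 at an adjusted p of 0.1. Exact permutation over 126 splits called 0 (smallest adjusted p 0.342). It could give no p below 0.0079, so that 0 calls after adjustment over the whole table was nearly fixed in advance. Leaving out single arrays gave 2 (without stretch replicate 2 or no-stretch replicate 3) to 195 (without stretch replicate 3), and 15 without stretch replicate 1 and no-stretch replicate 3, an omission chosen after seeing the data. Signs held in all settings run for H2-Aa, H2-Eb1, H2-DMb1, H2-DMa and Ciita. H2-Ab1 turned to 0.052 with Ptprc as a covariate. H2-Oa turned to 0.0021 with Ptprc and 0.043 with the dendritic mean, and ran from -0.12 to 0.029 when arrays were left out. H2-Ob turned to 0.025 with the dendritic mean. The correlation of H2-DMa with Ciita ran from -0.35 to 0.16 when arrays were left out and was 0.87 without the 2 arrays farthest from the median of Ciita, where H2-Oa and H2-Ob stood at -0.030 and -0.013. Members without overlap numbered 1 or, without stretch replicate 2, 2. Without stretch replicate 4, r with Ciita was 0.44, 0.34 and 0.32 for H2-Aa, H2-Oa and H2-Ob. No relation with Ciita passed in any setting. Except where the construction shows it, the cause was not tested.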

Other observations

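Class I presentation, which displays cytosolic peptides to CD8 T cells, was mixed. Of 12 measured members 4 were positive and 8 negative, with a median log2 change of -0.13 and 0 past limma's threshold (0 also at an unadjusted p under 0.05). The light chain B2m had a log2 change of 0.0091 and the heavy chains H2-K1 and H2-D1 of -0.26 and -0.15. The peptide transporter gene Tap1 was at -0.62 and the loading factor Tapbp at -0.35, while the immunoproteasome subunits Psmb8, Psmb9 and Psmb10 were at 0.46, 0.31 and 0.49.

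Outside the class II genes, 7 genes had the palindrome followed by the Y box in their promoter, and 6 of them were measured. Dtl and Ints7 lie on opposite strands with overlapping promoters and share the same site. Their log2 changes were 0.40 for Dtl, 0.085 for Ints7, -0.13 for Dusp8, 0.69 for Prkar1a, 0.24 for Ift57 and -0.042 for Thada. None passed the test (limma adjusted p from 0.14 to 0.96).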
